A study of Rattus norvegicus with 30 samples.

Results

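Sterol and fatty acid synthesis genes form a set of 37 genes that make cholesterol and fatty acids, control that synthesis or move sterols within and out of cells. Its members were listed by name, with earlier results of these data known. Each was measured by its brightest probe over the 30 arrays, and 35 of the 37 could be tested among 18420 genes in all. No probe matched Srebf1, and the only probe of Lpin1 was well above background on 0 arrays. All 35 tested members were well above background on all 30 arrays, and none was saturated.

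The 6 groups were lungs of male Wistar Unilever rats (HsdCpb:WU), an outbred strain obtained at 8 weeks of age and acclimatised for 2 weeks. The rats breathed air, 3.3 mg/m3 (low dose) or 13.2 mg/m3 (high dose) of copper oxide nanoparticles through the nose only, as 6 h equivalent doses, on 5 consecutive days. Lungs were taken 1 day after the last exposure (day 6) or 22 days after it (day 28), with 5 rats in each dose and day. Every rat gave 1 array, in which lung RNA was labelled with Cy5 and a reference RNA common to all arrays with Cy3. All values below are log2 ratios of lung over reference, so a level is relative to the reference and levels of different genes cannot be ranked. The labels list the air rats under the nanoparticles at a dose of 0 and give them no other treatment, and the same 5 air rats of a day serve both its doses. Whole lung was hybridised, so a change in the number of cells of a type and a change in RNA per cell cannot be told apart.

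Cholesterol is built from acetyl-CoA, first through mevalonate to the isoprenoid units and then through squalene and lanosterol. The transcription factor SREBP-2, encoded by Srebf2, switches on nearly all of these enzymes when membranes run low in cholesterol, and SREBP-1, encoded by Srebf1, acts more on fatty acid synthesis. Insig1 and Insig2 hold the SREBPs and their escort Scap in the endoplasmic reticulum while sterols are plentiful. Liver X receptors sense oxidised sterols and switch on the exporters Abca1 and Abcg1. In the lung, alveolar type II cells use both pathways to make the lipids of surfactant, and alveolar macrophages take these lipids up and export their cholesterol through Abcg1.

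The arrays had median Cy5 intensities of 216 to 432, and 59.5% to 68.4% of probes were well above background. The number of arrays limits the precision. One air rat of day 6 (rat 4) had a mean log2 ratio of 3.90 over 10 heart muscle markers, and one low-dose rat of day 6 (rat 49) had 1.75. No other rat exceeded 0.915 on that list. The same rats led their groups in the means of the club and ciliated cell markers (4.42 and 4.03) and of the adipocyte markers (0.55 and 0.48). Without both, 25 members rose and 1 fell at each dose on day 6, and the calls that ended were Insig2 at the high dose (adjusted p = 0.0538) and Srebf2 at the low dose (adjusted p = 0.0574). The surfactant genes Sftpb and Sftpc of alveolar type II cells, Ager of type I cells and Scgb1a1 of club cells were well above background on all 30 arrays.

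On day 6 all 18 enzymes of cholesterol synthesis in the set rose at both doses. With median centring the low-dose calls on Mvk, Pmvk and Ebp ended, which leaves 15 of 18 at that dose. At the high dose 26 of the 35 tested members rose and 1 fell, against 21.0% of all tested genes called higher and 15.5% called lower. At the low dose 26 members again rose and 1 fell, against 4.96% and 1.75% of all genes (limma, adjusted p under 0.05). As the set was not chosen blind to these data, its counts beside the shares of all genes are a description only. The 5 exposed rats all lay above the 5 air rats for 25 members at the high dose, and for 16.8% of all genes. They did so for 25 members at the low dose, and for 5.35% of all genes. The median log2 difference over the 35 members was 0.83 at the high dose and 0.73 at the low dose, against 0.0099 and 0.00029 over all tested genes. How all called genes divide into higher and lower depended on the scaling at the high dose. There 57.6% of called genes were higher with loess ratios, 47.5% with Cy5 alone, 46.0% in the authors' deposited table and 43.5% when arrays were centred on their median. At the low dose that share was 73.9% with loess ratios and 62.6% with Cy5 alone.

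**Figure D1:**
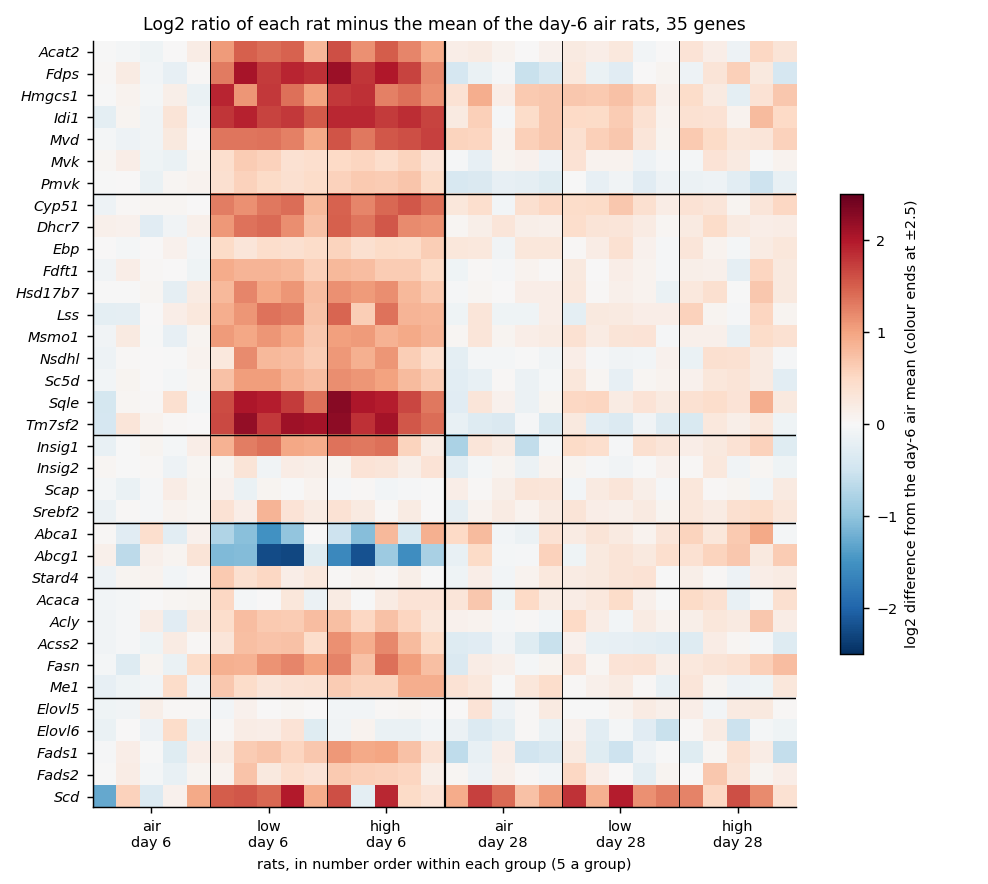
Heat map of the 35 tested members (rows, grouped by role and separated by lines) in the 30 rats (columns, 5 a group). Colour gives each rat's log2 ratio minus the mean of the day-6 air rats. The upper block of cholesterol enzymes is red in all 10 exposed rats of day 6 and paler in the 15 rats of day 28, and Abcg1 is the most strongly blue row on day 6.

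The 7 enzymes that lead from acetyl-CoA to farnesyl diphosphate rose by 0.47 to 1.81 (log2) at the high dose and by 0.46 to 1.77 at the low dose. Acat2 joins acetyl groups at the entrance of the pathway. Its log2 ratio was -2.41, -2.46, -2.52, -2.40 and -2.22 in the air rats of day 6, -1.34, -0.92, -1.004, -0.92 and -1.57 in the low-dose rats and -0.80, -1.25, -0.89, -1.19 and -1.47 in the high-dose rats. No exposed rat came down to the air range. Hmgcs1, the next step, makes HMG-CoA and stood at -2.06, -1.96, -2.09, -1.89 and -2.20 in air, -0.14, -0.94, -0.28, -0.66 and -1.04 at the low dose and -0.28, -0.22, -0.79, -0.66 and -0.90 at the high dose. These groups of exposed and air rats did not overlap either, although the exposed rats of each dose spread over more than 0.6 log2 units while the air rats kept within about 0.31.

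Mvk and Pmvk, the kinases that phosphorylate mevalonate, had the smallest rises of this branch. Mvk ran from -1.13 to -0.80 in air, -0.58 to -0.34 at the low dose and -0.63 to -0.41 at the high dose, a difference of 0.47 ± 0.09 (SE, n = 5 rats a group; limma adjusted p = 0.00014) at the high dose. Pmvk stood at -0.82, -0.80, -0.98, -0.76 and -0.72 in air, -0.42, -0.24, -0.34, -0.41 and -0.35 at the low dose and -0.24, -0.16, -0.18, -0.12 and -0.34 at the high dose. Small as these steps are, no exposed rat reached down to the highest air rat in either gene.

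Mvd, which decarboxylates mevalonate diphosphate, rose more. Its values were -2.61, -2.69, -2.65, -2.33 and -2.56 in air, -1.23, -1.22, -1.22, -1.30 and -1.63 at the low dose and -0.99, -1.25, -1.01, -0.95 and -0.85 at the high dose. The log2 difference from air was 1.56 ± 0.12 at the high dose (SE, n = 5 rats a group; 2.94-fold; limma adjusted p = 2.61e-11) and 1.25 ± 0.12 at the low dose (2.37-fold). Idi1 interconverts the isoprenoid units and had the smallest p of all members. It stood at -2.05, -1.74, -1.90, -1.50 and -1.89 in air, -0.036, 0.10, -0.12, -0.043 and -0.28 at the low dose and 0.063, 0.077, -0.075, 0.037 and -0.13 at the high dose, so that the lowest exposed rat was more than 1.2 log2 units above the highest air rat. The differences were 1.81 ± 0.13 (3.51-fold; limma adjusted p = 1e-11, n = 5 rats a group) at the high dose and 1.74 ± 0.13 (3.34-fold; adjusted p = 2.51e-10) at the low dose.

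Fdps condenses these units to farnesyl diphosphate, the branch point towards sterols, ubiquinone and prenylated proteins. Its brightest probe gave -1.76, -1.58, -1.85, -1.998 and -1.75 in air, -0.50, 0.28, -0.045, 0.11 and 0.045 at the low dose and 0.34, 0, 0.22, -0.098 and -0.59 at the high dose. Both doses differed from air by close to the same amount, 1.76 ± 0.17 and 1.77 ± 0.17 (SE, n = 5 rats a group; limma adjusted p = 4.76e-09 and 4.88e-08). A second Fdps probe gave 1.85 at the high and 1.88 at the low dose.

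The 11 enzymes from squalene synthase to the end of the pathway rose by 0.50 to 1.85 (log2) at the high dose and by 0.42 to 1.96 at the low dose. Fdft1 makes squalene, the first step that is committed to sterols. It stood at -0.58, -0.33, -0.47, -0.47 and -0.60 in air, 0.43, 0.36, 0.36, 0.32 and 0.10 at the low dose and 0.31, 0.29, 0.14, 0.14 and -0.017 at the high dose. Sqle, the epoxidase that follows and a rate-limiting step, had the largest high-dose difference of the 35 members. Its values were -3.17, -2.69, -2.71, -2.33 and -2.79 in air, -1.11, -0.71, -0.78, -0.98 and -1.36 at the low dose and -0.47, -0.72, -0.78, -1.07 and -1.41 at the high dose. The spread among high-dose rats was close to 1 log2 unit, and still every exposed rat lay above every air rat. Sqle differed from air by 1.85 ± 0.16 at the high dose (SE, n = 5 rats a group; 3.6-fold; limma adjusted p = 6.64e-10) and by 1.75 ± 0.16 at the low dose (3.37-fold; adjusted p = 1.96e-08).

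Lss closes squalene epoxide into lanosterol, and Cyp51 removes the first methyl group from it. Lss rose by 1.02 ± 0.16 and 1.08 ± 0.16 (SE, n = 5 rats a group) at the high and low dose, with air rats between -1.36 and -0.86. Cyp51 stood at -1.98, -1.83, -1.81, -1.80 and -1.84 in air, against -0.57, -0.70, -0.53, -0.46 and -1.05 at the low dose and -0.38, -0.63, -0.41, -0.30 and -0.48 at the high dose. The air rats kept close together and the exposed rats lay well above them. Its high-dose difference of 1.41 ± 0.11 was 2.66-fold (limma adjusted p = 8.26e-11, n = 5 rats a group). Tm7sf2, a sterol reductase that acts after Cyp51, showed the largest low-dose difference of the 18 enzymes. It stood at -2.64, -1.92, -2.13, -2.19 and -2.20 in air, -0.56, -0.021, -0.45, -0.099 and -0.13 at the low dose and 0.027, -0.38, -0.14, -0.67 and -0.82 at the high dose. The differences from air were 1.96 ± 0.16 at the low dose (3.9-fold; limma adjusted p = 1.43e-09, n = 5 rats a group) and 1.82 ± 0.16 at the high dose (3.53-fold; adjusted p = 5.47e-10).

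Msmo1, Nsdhl and Hsd17b7 together strip the remaining methyl groups at carbon 4 of the ring. Msmo1 stood at -1.55, -1.25, -1.48, -1.67 and -1.41 in air, -0.41, -0.51, -0.36, -0.51 and -0.80 at the low dose and -0.45, -0.40, -0.59, -0.53 and -0.62 at the high dose. Hsd17b7 stood at -0.94, -0.96, -0.88, -1.17 and -0.74 in air, -0.14, 0.28, 0.038, 0.16 and -0.16 at the low dose and 0.20, 0.12, 0.22, -0.14 and -0.28 at the high dose. Both separated fully from air, by 0.95 ± 0.10 and 0.96 ± 0.12 at the high dose and 0.95 ± 0.10 and 0.97 ± 0.12 at the low dose (SE, n = 5 rats a group). Nsdhl, between them in the pathway, rose by 0.83 ± 0.14 and 0.73 ± 0.14.

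Ebp, Sc5d and Dhcr7 finish the ring. Ebp, the isomerase, made the smallest move of the sterol branch, 0.50 ± 0.081 at the high and 0.42 ± 0.081 at the low dose, yet its air rats (-0.81 to -0.64) and exposed rats (-0.43 to -0.13) were apart. Sc5d, the desaturase, stood at -1.35, -1.23, -1.28, -1.33 and -1.24 in air, -0.55, -0.24, -0.23, -0.41 and -0.52 at the low dose and -0.12, -0.17, -0.29, -0.49 and -0.64 at the high dose. Dhcr7 makes cholesterol from its last precursor and stood at -2.43, -2.45, -2.83, -2.65 and -2.43 in air, -1.48, -1.21, -1.14, -1.40 and -1.83 at the low dose and -1.07, -1.21, -1.01, -1.38 and -1.41 at the high dose. Dhcr7 differed from air by 1.34 ± 0.11 (2.54-fold; limma adjusted p = 1.75e-10, n = 5 rats a group) and 1.15 ± 0.11 (2.21-fold; adjusted p = 3.17e-08) at the high and low dose.

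The 4 slides of the array set each held air and exposed rats of day 6. Within each slide all 18 enzymes were higher in the exposed than in the air rats at both doses, with medians of 1.06 to 1.35 (log2) at the high dose and 1.03 to 1.32 at the low dose. These within-slide values rest on 1 or 2 rats a side.

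**Figure D2:**
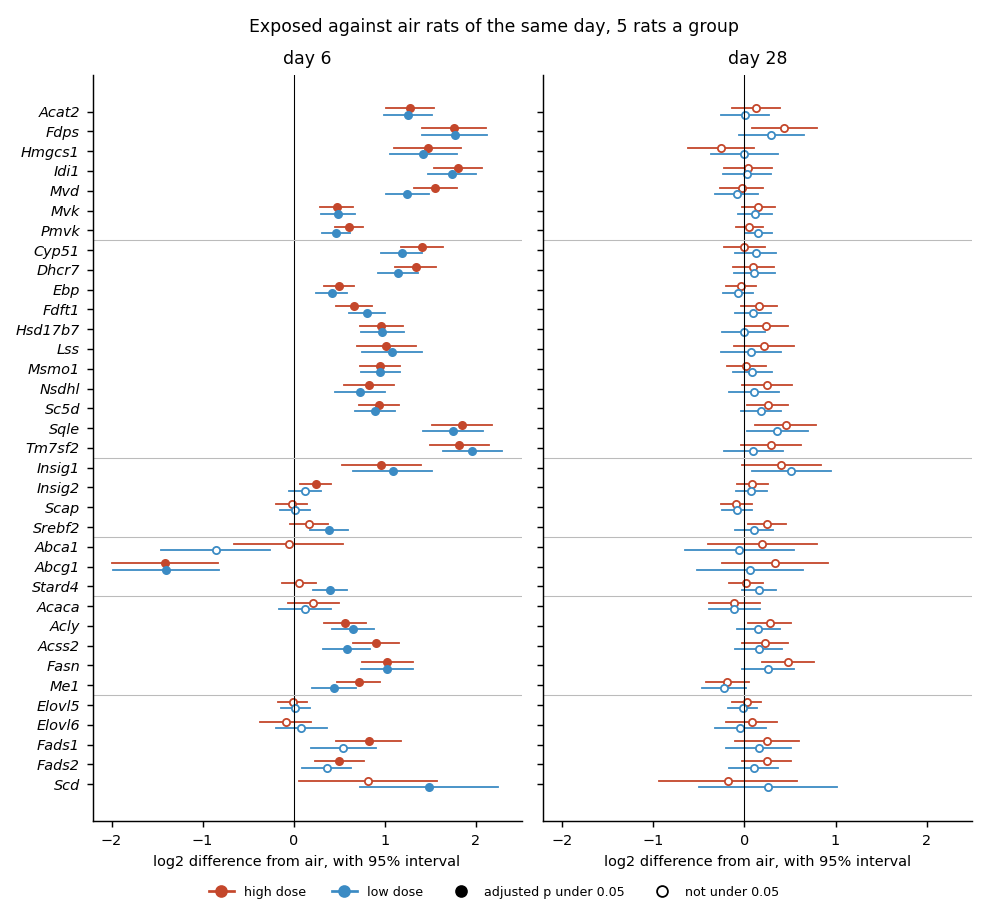
Log2 difference of exposed from air rats of the same day for each tested member, with 95% intervals from the fit (n = 5 rats a group), at the high dose (red) and the low dose (blue), on day 6 (left) and day 28 (right). Filled points passed an adjusted p of 0.05. On day 6 the 18 enzymes at the top are filled at both doses, between 0.42 and 1.96, and on day 28 no point is filled.

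Of the 4 regulators measured, Insig1 rose at both doses, Insig2 and Srebf2 passed at 1 dose each and Scap at neither. Insig1, itself a target of SREBP-2 and so a common reporter of its activity, stood at -0.77, -0.60, -0.52, -0.65 and -0.43 in air, 0.28, 0.68, 0.79, 0.37 and 0.34 at the low dose and 0.76, 0.72, 0.79, -0.039 and -0.38 at the high dose. In the high-dose group 3 rats stood near 0.76, while rats 78 and 79 lay closer to the air rats. The groups did not overlap but the spread was wide. Rats 78 and 79 shared slide 2, which held no other high-dose rat of day 6, and the part of the slide in this split was not tested. The differences were 0.96 ± 0.21 at the high dose (SE, n = 5 rats a group; limma adjusted p = 0.0007) and 1.09 ± 0.21 at the low dose (adjusted p = 0.00111). Insig2, the partner of Insig1, stood at -0.61, -0.67, -0.63, -0.80 and -0.61 in air, -0.60, -0.34, -0.76, -0.48 and -0.52 at the low dose and -0.59, -0.31, -0.35, -0.51 and -0.33 at the high dose. Its high-dose difference of 0.24 ± 0.084 passed the threshold (limma adjusted p = 0.0233, n = 5 rats a group), while the low-dose difference was 0.12 ± 0.084 (adjusted p = 0.43). The Insig2 call ended when high-dose rat 76, 77 or 79 or air rat 4 was left out, and with median centring, Cy5 alone, the processed signals or the authors' table.

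Srebf2 stood at -0.19, -0.016, -0.081, 0.039 and 0 in air, 0.31, 0.12, 0.79, 0.30 and 0.15 at the low dose and 0.30, 0.17, -0.011, 0.17 and -0.045 at the high dose on day 6. Only the low dose separated from air, by 0.38 ± 0.10 (SE, n = 5 rats a group; limma adjusted p = 0.0182), against 0.17 ± 0.10 (adjusted p = 0.214) at the high dose. The direct difference between the doses, -0.22 ± 0.10, did not pass (adjusted p = 0.18). Low-dose rat 49, one of the pair with heart muscle markers, was the highest at 0.79. Without it, or without air rat 1, the low-dose call ended. Scap, the escort of the SREBPs, differed from air by -0.022 (95% interval -0.19 to 0.15) at the high and 0.017 (-0.15 to 0.19) at the low dose.

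The 3 sterol transport genes did not move as one. Abcg1 exports cholesterol to high-density lipoprotein and fell: its values were 1.77, 1.00, 1.76, 1.71 and 1.97 in air, 0.54, 0.56, -0.58, -0.64 and 1.34 at the low dose and 0.034, -0.54, 0.73, 0.099 and 0.84 at the high dose. Every high-dose rat lay below every air rat, and at the low dose only rat 51, at 1.34, exceeded the lowest air rat, rat 2 at 1.00. The log2 differences were -1.41 ± 0.28 (2.66-fold lower; limma adjusted p = 0.000254, n = 5 rats a group) at the high dose and -1.40 ± 0.28 (2.64-fold lower; adjusted p = 0.00169) at the low dose. Abca1, the exporter to lipid-poor apolipoprotein, scattered widely among exposed rats. It stood at 0.97, 0.66, 1.36, 0.69 and 1.05 in air, 0.19, -0.10, -0.56, -0.045 and 0.96 at the low dose and 0.42, -0.11, 1.75, 0.57 and 1.83 at the high dose. High-dose rats 77 and 79 stood above all air rats and rats 75, 76 and 78 below them all. The mean difference was -0.054 ± 0.29 (SE, n = 5 rats a group, limma adjusted p = 0.909). At the low dose it was -0.86 ± 0.29 (adjusted p = 0.0745), which does not pass. It passed without low-dose rat 51, with the processed signals and with Cy5 alone.

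Stard4 carries cholesterol between membranes inside the cell and is an SREBP-2 target. Its brightest probe stood at -0.033, 0.15, 0.18, 0.017 and 0.12 in air, 0.74, 0.49, 0.61, 0.25 and 0.34 at the low dose and 0.12, 0.18, 0.11, 0.24 and 0.076 at the high dose. By this probe the low dose lay above air by 0.40 ± 0.09 (SE, n = 5 rats a group; limma adjusted p = 0.00442) and the high dose did not pass at 0.058 ± 0.09 (adjusted p = 0.653). A second, dimmer probe of Stard4 disagreed: there both doses rose, by 0.79 ± 0.14 (adjusted p = 8.59e-05) at the high and 0.62 ± 0.14 (adjusted p = 0.00703) at the low dose. The mean of both probes gave 0.43 at the high dose. The disagreement between the probes covers the high dose only.

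**Figure D3:**
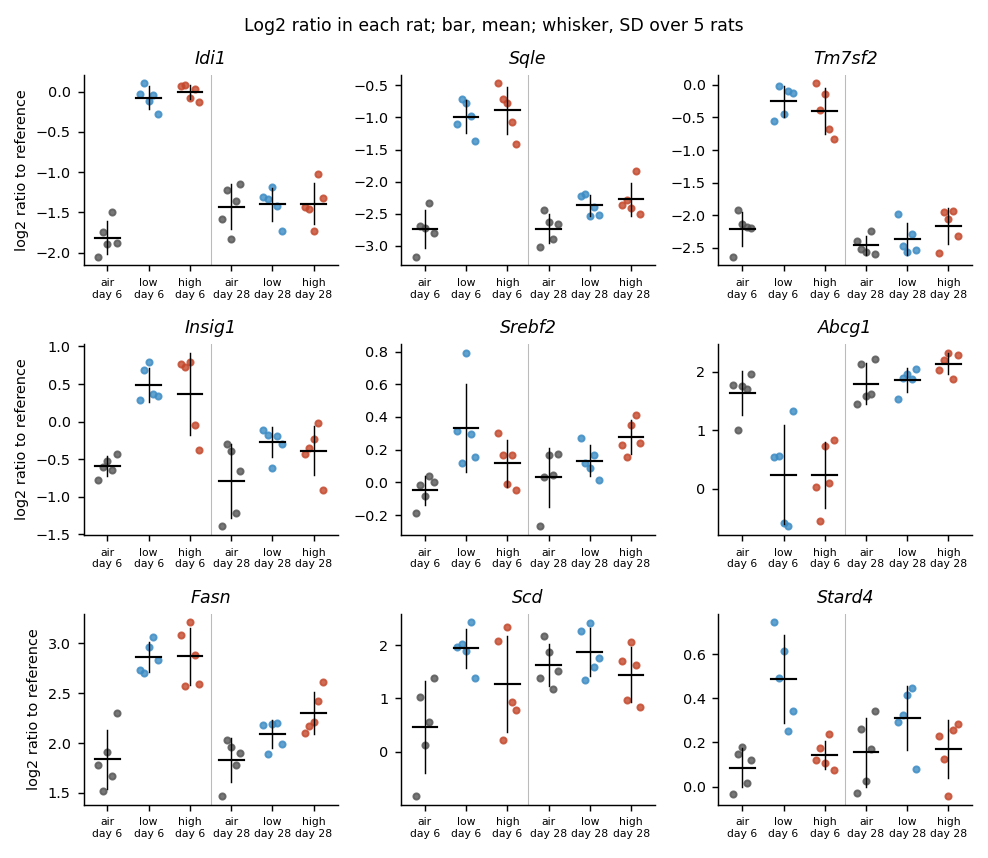
Log2 ratio of 9 members in each rat (points), with the group mean (bar) and SD (whisker) over 5 rats, for air (grey), low dose (blue) and high dose (red) on both days; each panel has its own scale, so heights cannot be compared between panels. Idi1, Sqle, Tm7sf2 and Fasn separate from air at both doses on day 6, Abcg1 lies low, Scd overlaps between groups, and Stard4, by its brightest probe, separates at the low dose only.

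The promoters of the enzymes that moved most are given next, since these genes have known promoter elements to look for. Whether any factor acted on them was not tested. SREBPs bind sterol regulatory elements beside CCAAT boxes (bound by NF-Y) and GC boxes (bound by Sp1). RefSeq promoter windows (assembly GRCr8, 250 bases before to 50 after each start) matched 29 of the 37 members, among them 15 of the 18 enzymes. No window matched Pmvk, Fdft1, Sqle, Stard4, Abcg1, Acaca, Fasn or Elovl6. Printed 5′ to 3′ on the gene's strand are the 200 bases before the start of the 5 enzymes with the largest high-dose difference that have a window, and of Insig1. Capitals mark CCAAT or its complement ATTGG, and GGGCGG or its complement CCGCCC.
Tm7sf2: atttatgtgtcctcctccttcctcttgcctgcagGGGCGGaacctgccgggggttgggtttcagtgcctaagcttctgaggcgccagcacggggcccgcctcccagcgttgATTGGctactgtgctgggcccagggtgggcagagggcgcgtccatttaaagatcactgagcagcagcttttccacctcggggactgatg
Idi1: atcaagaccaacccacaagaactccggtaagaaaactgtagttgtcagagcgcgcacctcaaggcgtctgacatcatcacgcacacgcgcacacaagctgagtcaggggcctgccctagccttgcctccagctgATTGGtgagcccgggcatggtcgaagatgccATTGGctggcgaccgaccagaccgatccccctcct
Fdps: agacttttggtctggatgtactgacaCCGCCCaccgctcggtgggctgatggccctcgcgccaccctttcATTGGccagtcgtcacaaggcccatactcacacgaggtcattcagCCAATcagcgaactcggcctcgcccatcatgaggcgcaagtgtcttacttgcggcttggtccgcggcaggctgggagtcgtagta
Mvd: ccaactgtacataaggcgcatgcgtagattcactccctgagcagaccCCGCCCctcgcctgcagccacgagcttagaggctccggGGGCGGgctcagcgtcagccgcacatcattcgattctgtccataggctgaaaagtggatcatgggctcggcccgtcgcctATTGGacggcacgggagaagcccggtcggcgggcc
Hmgcs1: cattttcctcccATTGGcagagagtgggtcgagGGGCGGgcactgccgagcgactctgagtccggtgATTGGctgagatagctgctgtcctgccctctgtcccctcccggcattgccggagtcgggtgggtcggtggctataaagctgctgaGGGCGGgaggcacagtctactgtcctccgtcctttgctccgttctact
Insig1: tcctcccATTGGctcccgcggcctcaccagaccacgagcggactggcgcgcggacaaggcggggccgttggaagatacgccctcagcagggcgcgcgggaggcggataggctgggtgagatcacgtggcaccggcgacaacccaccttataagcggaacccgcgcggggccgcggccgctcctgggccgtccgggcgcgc

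These stretches lie at chr1:212789542-212789741 (Tm7sf2), chr17:66547525-66547724 (Idi1), chr2:176804817-176805016 (Fdps), chr19:67414975-67415174 (Mvd) and chr4:8057770-8057969 (Insig1) on the minus strand and at chr2:53382104-53382303 (Hmgcs1) on the plus strand of GRCr8, all upstream of the annotated start. Searched on both strands of the whole 300-base window, CCAAT was present in 21 of 29 members and 12 of 15 enzymes, against 37.5% of 33469 promoters in the table. GGGCGG was present in 23 of 29 members and 13 of 15 enzymes, against 33.1% of all promoters, and 16 members held both. No CCAAT match overlapped a GGGCGG match in a member. The windows of members were richer in G and C, with a median of 63.8% against 51.7% over all promoters, and how far this sets the shares was not tested.

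The sterol regulatory element form TCACNCCAC occurred in 0 of 29 members and 1.12% of all promoters. With 1 mismatch allowed, 16 of 29 members and 7 of 15 enzymes matched, against 23.7% of all promoters. The liver X receptor motif DR4 (a direct repeat with 4 free bases between) was in 0 of 29 members, Abca1 included, and in 4 of the 33469 promoters. Abcg1 had no window and was not searched. A missing match says only that these letters are not in this window.

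Of the 5 fatty acid synthesis members 4 rose at both doses. Acly cuts citrate into cytosolic acetyl-CoA, Acss2 makes acetyl-CoA from acetate, Acaca turns it into malonyl-CoA, Fasn assembles the chain and Me1 supplies NADPH. Fasn stood at 1.78, 1.52, 1.91, 1.67 and 2.30 in air, 2.73, 2.71, 2.96, 3.06 and 2.84 at the low dose and 3.08, 2.58, 3.21, 2.89 and 2.59 at the high dose of day 6. No exposed rat came down to the highest air rat, rat 5, and the differences were 1.03 ± 0.14 (2.04-fold; limma adjusted p = 1.1e-06, n = 5 rats a group) and 1.02 ± 0.14 (2.03-fold; adjusted p = 8.61e-06) at the high and low dose. Acss2 rose by 0.91 ± 0.12 at the high and 0.58 ± 0.12 at the low dose, and Acly by 0.57 ± 0.11 and 0.65 ± 0.11, with no overlap with air in either gene (SE, n = 5 rats a group).

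Me1 rose by 0.71 ± 0.12 at the high dose and 0.44 ± 0.12 at the low dose (SE, n = 5 rats a group; limma adjusted p = 2.1e-05 and 0.0188). Air rat 4, the rat with heart muscle markers, was the highest air rat for Me1 at -0.13 and overlapped the low-dose rats, which ran from -0.28 to 0.093. The low-dose call on Me1 ended without air rat 1 or 5 or low-dose rat 47. A second Me1 probe gave 0.83 and 0.57 at the high and low dose. Acaca, the step that commits carbon to fatty acids, did not pass at either dose: the differences were 0.22 (95% interval -0.066 to 0.50) at the high and 0.13 (-0.16 to 0.41) at the low dose.

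The enzymes that desaturate or elongate fatty acids split. Fads1 and Fads2 desaturate polyunsaturated chains, Scd makes oleate, and Elovl5 and Elovl6 lengthen chains. Fads1 ran from -0.54 to -0.066 in air and from 0.12 to 0.85 at the high dose, a rise of 0.83 ± 0.17 (SE, n = 5 rats a group; limma adjusted p = 0.000398). At the low dose its 5 rats also lay above the air rats, by 0.55 ± 0.17, which just missed the threshold (adjusted p = 0.0535). Fads2 overlapped with air at the high dose and rose there by 0.50 ± 0.13 (adjusted p = 0.00344) and differed by 0.36 ± 0.13 at the low dose (adjusted p = 0.0991).

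Scd varied more between air rats of day 6 than any other member. It stood at -0.83, 1.03, 0.12, 0.56 and 1.39 in air, 1.98, 2.02, 1.89, 2.43 and 1.38 at the low dose and 2.08, 0.21, 2.34, 0.94 and 0.79 at the high dose. Air rat 1 was the lowest, and high-dose rat 76 stood far below rats 75 and 77. Both exposed groups overlapped with air. Low-dose rat 51 lay just below air rat 5, and high-dose rats 76, 78 and 79 lay below air rats 2 and 5. The low-dose difference of 1.48 ± 0.37 passed (limma adjusted p = 0.0109, n = 5 rats a group), and that call ended without air rat 1. The high-dose difference of 0.82 ± 0.37 did not pass (adjusted p = 0.0854), but it passed without air rat 5 or without high-dose rat 76. Elovl5 and Elovl6 lay near 0: Elovl5 differed by -0.0084 (95% interval -0.17 to 0.15) and Elovl6 by -0.084 (-0.36 to 0.20) at the high dose.

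As a 6 h equivalent dose the high dose was 4 times the low dose, and the 18 cholesterol enzymes of day 6 did not separate by dose. The mean log2 ratio of the 18 in each rat was -1.71 to -1.56 in air, -0.69 to -0.36 at the low dose and -0.66 to -0.24 at the high dose. High minus low differences of single enzymes ran from -0.15 (Tm7sf2) to 0.31 (Mvd), and 0 of 18 passed. Over all genes 8.01% were called higher and 3.85% lower at the high than at the low dose. The 95% intervals, which are not adjusted over genes, bound the difference between doses: that of Idi1 ran from -0.19 to 0.33, that of Sqle from -0.24 to 0.43, that of Fdps from -0.36 to 0.35 and that of Mvd from 0.073 to 0.55. Among all 35 members 1 passed, Stard4 by its brightest probe, at -0.34 ± 0.09 (limma adjusted p = 0.0111, n = 5 rats a group), and that call ended with the mean of its probes and with median centring. At an unadjusted p under 0.05 the count was 6 of 35 members, against 24.4% of all genes. For all called genes the share that was higher fell from 67.5% with loess ratios to between 53.8% and 55.6% with the processed signals, Cy5 alone or the authors' deposited table.

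On day 28 no member passed the test against the air rats of the same day at either dose. The limma test called 0 of 35 members in both directions at both doses, against 0.0760% of all genes called higher and 0.109% lower at the high dose and 0% and 0.0109% at the low dose. At an unadjusted p under 0.05, 7 members were higher at the high dose and 3 at the low dose, and none was lower, against 15.1% and 5.95% of all genes in either direction. The count of members called was also 0 under each of the 10 other processing settings. Between the doses on day 28 the test called 0 members, against 0.0706% of genes higher and 0.0706% lower, with 1 member and 2.61% of all genes at an unadjusted p under 0.05.

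The mean of the 18 enzymes in each rat of day 28 was -1.62 to -1.46 in air, -1.59 to -1.32 at the low dose and -1.53 to -1.27 at the high dose, so the 3 groups overlapped. The slides were not balanced on day 28: slide 3 held 0 air, 2 high-dose and 1 low-dose rat. Within slides 1, 2 and 4 the enzymes higher than in air numbered 18, 16 and 12 at the high dose. At the low dose they numbered 15, 15 and 7, with 1 or 2 rats a side. For Idi1 the values were -1.59, -1.22, -1.84, -1.36 and -1.15 in air, -1.31, -1.34, -1.19, -1.43 and -1.74 at the low dose and -1.43, -1.46, -1.73, -1.03 and -1.32 at the high dose. Sqle stood at -3.02, -2.44, -2.63, -2.89 and -2.66 in air, -2.22, -2.20, -2.53, -2.39 and -2.52 at the low dose and -2.36, -2.29, -2.40, -1.83 and -2.498 at the high dose, with a high-dose difference of 0.45 (95% interval 0.12 to 0.79; limma adjusted p = 0.226, n = 5 rats a group). That interval is not adjusted over genes and leaves room for a remaining difference in Sqle.

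Fasn had the largest high-dose difference of the members on day 28. It stood at 1.47, 2.03, 1.97, 1.78 and 1.90 in air, 2.18, 1.89, 2.19, 2.21 and 1.99 at the low dose and 2.10, 2.17, 2.21, 2.42 and 2.62 at the high dose. The 5 high-dose rats lay above the 5 air rats, by 0.48 ± 0.14, without passing the test (limma adjusted p = 0.139, n = 5 rats a group). Acly was the other member with no overlap at the high dose, by 0.28 ± 0.11. The share of all genes without overlap was not counted for day 28, so these separations have no background beside them. Abcg1 was back among the air rats, at 1.53, 1.89, 1.97, 1.88 and 2.06 at the low dose and 2.02, 2.20, 2.31, 1.88 and 2.29 at the high dose against 1.45, 2.13, 1.59, 1.62 and 2.22 in air.

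The change in effect between the days was tested directly. For the high dose the difference from air shrank from day 6 to day 28 in 19 members and rose in 1, Abcg1, whose difference on day 6 was negative. Over all genes 11.2% were called in the falling and 5.49% in the rising direction. For the low dose it shrank in 17 members and rose in 0, against 1.66% and 0.309% of all genes. Of the 18 cholesterol enzymes 17 passed at the high dose and 15 at the low dose. Idi1 changed by -1.77 ± 0.18 and -1.71 ± 0.18 (SE; limma adjusted p = 4.04e-08 and 1.03e-06, n = 5 rats a group), and Tm7sf2 by -1.53 ± 0.22 and -1.87 ± 0.22. Mvk did not pass at either dose, with -0.32 (95% interval -0.58 to -0.057) and -0.37 (-0.63 to -0.11). Insig1 did not pass either, at -0.56 (-1.18 to 0.056) and -0.57 (-1.19 to 0.043), and its air rats of day 28 were spread from -1.39 to -0.30. The comparison of days depended on centring: with median centring 11 members fell and 1 rose for the high dose and 7 fell for the low dose. Among all genes called for the high dose the rising share was 32.8% with loess ratios and 50% in the authors' deposited table.

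Between the air rats of the 2 days 2 members passed. From day 6 to day 28, Mvd was higher by 0.49 ± 0.12 (limma adjusted p = 0.0198, n = 5 rats a group) and Pmvk differed by -0.30 ± 0.073 (adjusted p = 0.025), against 1.87% of all genes called higher and 1.09% lower. Both calls ended with median centring and with the processed signals, and leaving out 1 rat moved the count of members called between 0 and 7. At an unadjusted p under 0.05, 9 members were higher and 2 lower on day 28, against 24.2% of all genes in either direction. Hmgcs1 lay fully above and Pmvk fully below on day 28, and such separation was not counted over all genes here. Scd had the largest difference, 1.17 ± 0.37 (adjusted p = 0.0737), without passing.

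Genes beside the 37 in the same pathways were read from further lists, whose counts stand beside the shares of all genes called, 21.0% higher and 15.5% lower at the high dose and 4.96% and 1.75% at the low dose. These lists, like the 37 genes, were not chosen blind to the data. Of 34 other sterol genes 32 were tested, and 12 rose (37.5%) and 3 fell (9.38%) at the high dose on day 6, 6 (18.8%) and 0 at the low dose. Aacs, which activates acetoacetate for lipid synthesis, rose by 0.93 ± 0.084 at the high and 0.97 ± 0.084 at the low dose (SE, n = 5 rats a group; limma adjusted p = 1e-09 and 4.55e-09). Its high minus low difference of -0.04 did not pass. Npc2, which moves cholesterol out of lysosomes, rose by 1.47 and 0.97.

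Among genes tied to liver X receptors, Nr1h3, which encodes liver X receptor alpha, fell by 0.25 (log2) at the high dose (limma adjusted p = 0.0313) and stood -0.19 from air at the low dose (adjusted p = 0.235; n = 5 rats a group). Mylip, its target, stood at -0.34 and -0.49 without passing (adjusted p = 0.0907 and 0.0515).

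Of 36 other fatty acid genes 31 were tested, and 15 rose (48.4%) and 4 fell (12.9%) at the high dose, 7 (22.6%) and 1 (3.23%) at the low dose. Acsl4, which activates polyunsaturated fatty acids, rose by 1.76 ± 0.12 and 1.13 ± 0.12, and Fabp5, a fatty acid carrier abundant in macrophages and skin, by 2.73 ± 0.25 and 2.18 ± 0.25 (SE, n = 5 rats a group). Gpam, which starts glycerolipid synthesis, rose by 0.91 and 0.36, and Idh1, a source of NADPH, by 0.86 and 0.57. Acsl4, Gpam and Idh1 were also higher at the high than at the low dose, by 0.63, 0.55 and 0.29, all past the threshold. Scd2 rose by 0.55 at the high dose (limma adjusted p = 0.0419) and differed by 0.62 at the low dose (adjusted p = 0.078; n = 5 rats a group).

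Of 22 fatty acid oxidation genes, all tested, 4 rose and 4 fell at the high dose (18.2% each way), which is near the shares over all genes, and 0 rose and 2 fell (9.09%) at the low dose. Slc25a20, the carnitine carrier of mitochondria, rose by 0.49 at the high dose, while Acadm, a dehydrogenase of medium chains, and Ucp3, an uncoupling protein, had differences of -0.48 and -1.22 (all past the threshold). Pdk4, which spares glucose, passed at both doses with -0.41 and -0.27. Cpt1a, the gate of mitochondrial oxidation, passed at the low dose with -0.43 and not at the high dose with -0.22.

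Markers of other cells moved on day 6 as well, and their part in the result was not tested. Over all genes 36.5% were called at the high dose (21.0% higher, 15.5% lower) and 6.71% at the low dose (4.96% higher, 1.75% lower). Of 15 tested macrophage and monocyte markers 13 rose at the high dose and 5 at the low dose, led by Mmp12 (4.04 and 3.48) and Fcgr1a (1.91 and 0.70). Their mean log2 ratio in each rat was 0.40 to 0.59 in air, 0.84 to 1.62 at the low dose and 1.28 to 2.45 at the high dose. Of 12 markers of dividing cells 11 rose at the high dose and 8 at the low dose, with rat means of -3.81 to -3.45, -3.03 to -2.48 and -2.03 to -1.74. Here 11 of 12 were also called higher at the high than at the low dose, Cdk1 by 1.26 and Tk1 by 1.12. Of 8 neutrophil markers 7 rose at the high and 5 at the low dose, with S100a9 at 3.49 and 3.31 and Il1r2 at 2.38 and 2.31, and rat means of 0.46 to 0.70, 1.57 to 2.14 and 1.88 to 2.24. In all 3 lists the rat means of exposed and air rats did not overlap. Marco, a marker of resident alveolar macrophages, was well above background on 5 arrays.

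Among 12 tested alveolar type II markers, all of surfactant-making cells, 6 rose and 1 fell at the high dose and 3 rose and 1 fell at the low dose. Ctsh, a protease that processes surfactant protein, rose by 2.23 and 1.59, and Etv5, a transcription factor of these cells, had differences of -0.93 and -0.44, both past the threshold. The rat means of the list were 4.24 to 4.76 in air, 4.58 to 5.14 at the low dose and 4.78 to 5.22 at the high dose, so the groups overlapped between air and low dose. Of 9 alveolar type I markers 7 fell at the high dose (77.8%) and 1 at the low dose (11.1%). They were led by Cav1 (-1.60 and -0.52) and Cyp4b1 (-1.48 and -0.37, the second not past the threshold). The rat means of the type I list were 4.57 to 4.83 in air, 4.27 to 4.66 at the low dose and 3.58 to 4.13 at the high dose.

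**Figure D4:**
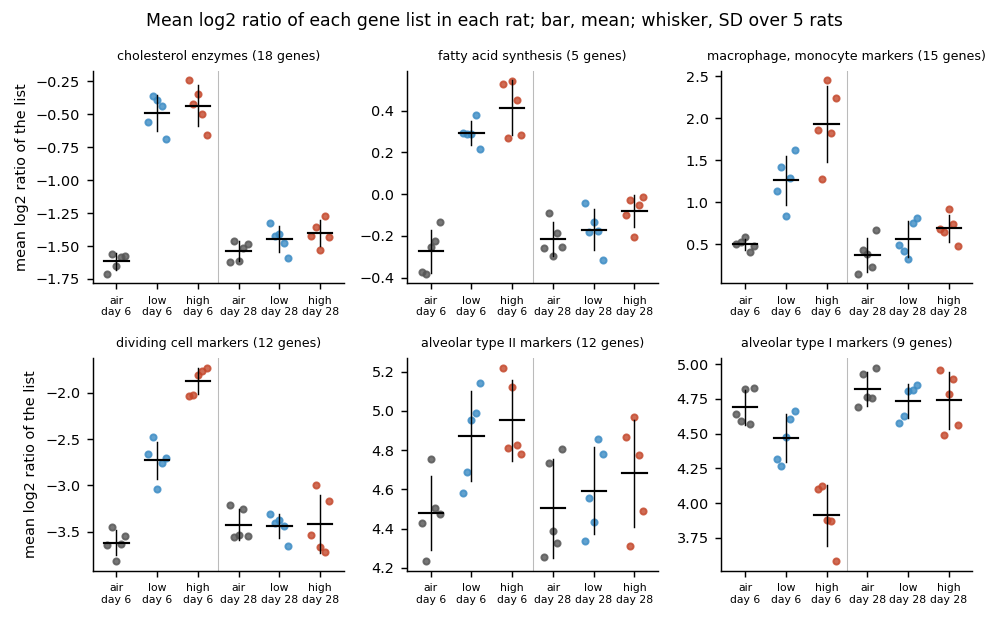
Mean log2 ratio of 6 gene lists in each rat (points), with the group mean (bar) and SD (whisker) over 5 rats, for air (grey), low dose (blue) and high dose (red) on both days; panels have their own scales. On day 6 the cholesterol enzymes of both doses overlap. The dividing cell markers are higher and the alveolar type I markers lower at the high than at the low dose.

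Fat cells also make fatty acids and could come with lung tissue. Of 6 tested adipocyte markers 1 fell at the high dose, Cidec by 0.65 (log2). That is 16.7%, near the 15.5% of all genes called lower. At either dose 0 rose, with Cfd at -0.59 at the high dose and not past the threshold. The rat means of the adipocyte list were -0.66 to 0.55 in air, -0.72 to 0.48 at the low dose and -0.94 to -0.61 at the high dose. Adipoq was well above background on 11 arrays and Lep on 0. Of the 10 tested markers of club and ciliated cells 1 rose and 1 fell at the high dose, Tekt2 at 1.21 and Tppp3 at -1.07, and 0 of 10 heart muscle markers passed at either dose, Actc1 and Ryr2 having the smallest p. The rat means of the club and ciliated list were 2.58 to 4.42 in air, 2.58 to 4.03 at the low dose and 2.23 to 3.43 at the high dose.

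Sterol synthesis follows the time of day in many tissues, so 14 clock genes were read too. At the high dose on day 6, 2 rose (14.3%) and 8 fell (57.1%), against 21.0% and 15.5% of all genes. At the low dose 0 rose and 2 fell (14.3%), against 4.96% and 1.75%. Nfil3 rose by 0.58 and Nr1d1 stood at -1.02 at the high dose, both past the threshold, with 0.11 and 0.12 at the low dose, neither past it. The rat means of the list were 0.57 to 0.63 in air, 0.36 to 0.54 at the low dose and 0.11 to 0.34 at the high dose on day 6. On day 28 they were 0.23 to 0.41, -0.15 to 0.016 and 0.42 to 0.67, with no overlap between any of the 3 groups. Single genes moved both ways. Between the doses on day 28, 6 of 14 were called higher and 4 lower (log2 -1.84 to 4.68 over the 14), against 0.0706% of all genes each way. Against air on day 28, 2 were higher and 2 lower at the high dose, and 0 and 2 at the low dose. Over all genes those shares were 0.0760% and 0.109%, and 0% and 0.0109%. Between the air rats of the 2 days 4 were higher and 6 lower on day 28, against 1.87% and 1.09% of all genes. The time of day at which each rat was killed is not given in the labels, and its part in the result was not tested.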

How the data were processed

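Per the labels' protocols, 200 ng of lung RNA with an integrity number above 7 was hybridised per array. The labels disagree on the reference, a mouse RNA in the labelling protocol and rat RNA of 14 cell lines in the second channel. Spot intensity values are deposited as Agilent Feature Extraction output (version 11.0.1.1, per the file headers). The authors' deposited table of log2 ratios, whose normalization no source used here states, correlated at 0.997 to 1.000 with loess ratios without background correction. Its column medians were -0.0314 to -0.00539. Median spot and local background intensities were corrected with normexp (offset 50), and log2 Cy5 over Cy3 was normalized by loess within arrays, with control and outlier-flagged spots at weight 0. Probes well above background in Cy5 on at least 5 of 30 arrays were kept (20852 of 30367). Unversioned accessions were matched to RefSeq (GRCr8), and the brightest probe stood for a gene (18420, of which 11331 had symbols). Of the array's 62976 spots 4259 were controls.

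All 6 group means were fitted in limma 3.58.1 (R 4.3.3), with 9 contrasts and Benjamini-Hochberg adjustment over all genes at 0.05. The fit was tested on simulated data. Intervals are 95%. Second probes were read from the same model over all kept probes. The members and lists were chosen with earlier results of these data known. Named beside the members were, per related list, the 4 genes of smallest p at the high and 2 at the low dose on day 6 with a fixed panel (among them Nr1h3, Mylip, Scd2 and Cpt1a; some genes the rule names are not reported here), and 2 per marker list. Values per rat are printed for the 15 members with the smallest p and for Srebf2, Insig1, Insig2, Abca1, Abcg1, Scd and, outside that rule, Stard4, whose probes disagree. Alternatives were no background correction, processed signals, median centring, Cy5 alone, the authors' table, no probe filter or a filter on all 30 arrays, only the compared groups, slide as a block, the mean of probes and leaving out each rat. The pair without rats 4 and 49 was added after seeing the data. The animals are separate rats.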

Additional observations from a re-analysis of the deposited data

Results flagged for a closer look

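Members whose difference from air changed between day 6 and day 28 were picked out by the direct test of that change (limma, adjusted p under 0.05, n = 5 rats a group). Values are the log2 difference from air on day 28 minus that on day 6. For the high dose they were Acat2 (-1.15), Fdps (-1.33), Hmgcs1 (-1.73), Idi1 (-1.77), Mvd (-1.59), Pmvk (-0.56), Cyp51 (-1.41), Dhcr7 (-1.25), Ebp (-0.54), Fdft1 (-0.50), Hsd17b7 (-0.72), Lss (-0.81), Msmo1 (-0.93), Nsdhl (-0.58), Sc5d (-0.69), Sqle (-1.40), Tm7sf2 (-1.53), Acss2 (-0.68) and Me1 (-0.90), all negative, and Abcg1 (1.75), the 1 positive value. For the low dose they were Acat2 (-1.24), Fdps (-1.47), Hmgcs1 (-1.43), Idi1 (-1.71), Mvd (-1.33), Cyp51 (-1.06), Dhcr7 (-1.04), Ebp (-0.48), Fdft1 (-0.71), Hsd17b7 (-0.98), Lss (-1.01), Msmo1 (-0.87), Sc5d (-0.71), Sqle (-1.39), Tm7sf2 (-1.87), Fasn (-0.76) and Me1 (-0.67). Most of these members are cholesterol enzymes, and their differences from air on day 28 are given in the report. Of 31 alternatives, the low-dose change of Fasn was lost in 15 and that of Me1 in 9, and the high-dose change of Nsdhl in 12, mostly on leaving out 1 rat.

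Some rats stood far from the other 4 of their group in 1 gene. This was so in 13 of the 210 sets of 5 rats examined (6.19%), where chance gives about 5%. Low-dose rat 56 of day 28 stood at -1.92 for Hmgcs1, with the other rats of its group between -1.48 and -1.31. Low-dose rat 51 of day 6 stood at -1.63 for Mvd, with the other rats of its group between -1.30 and -1.22. Air rat 8 of day 28 stood at -2.47 for Mvd, with the other rats of its group between -2.03 and -1.90. Air rat 1 of day 6 stood at -1.98 for Cyp51, with the other rats of its group between -1.84 and -1.80. High-dose rat 81 of day 28 stood at -2.10 for Dhcr7, with the other rats of its group between -2.38 and -2.33. Air rat 8 of day 28 stood at -0.82 for Ebp, with the other rats of its group between -0.49 and -0.47. Low-dose rat 52 of day 28 stood at -1.38 for Lss, with the other rats of its group between -0.97 and -0.89. Low-dose rat 49 of day 6 stood at 0.79 for Srebf2, with the other rats of its group between 0.12 and 0.31. Air rat 2 of day 6 stood at 1.00 for Abcg1, with the other rats of its group between 1.71 and 1.97. High-dose rat 83 of day 28 stood at 0.54 for Acly, with the other rats of its group between -0.001 and 0.13. Low-dose rat 52 of day 28 stood at -1.65 for Acss2, with the other rats of its group between -2.02 and -1.94. Air rat 4 of day 6 stood at -0.13 for Me1, with the other rats of its group between -0.79 and -0.65. High-dose rat 79 of day 6 stood at -1.26 for Fads2, with the other rats of its group between -0.86 and -0.74.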

How the results depend on the processing

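The counts of members called in the comparisons with air kept within 1.5 times the reported count in each of the 10 processing alternatives on day 6, and were 0 in each on day 28. The direction of no called member reversed. Leaving out 1 rat gave 26 to 28 members at the high dose on day 6 (27 reported), 24 to 28 at the low dose (27 reported) and 0 to 0 in the 3 comparisons of day 28. It gave 1 to 3 for high against low dose on day 6 (1 reported), 0 to 7 for air between the days (2 reported), 19 to 21 for the change of the high-dose effect (20 reported) and 14 to 19 for that of the low-dose effect (17 reported). Median centring gave 0 for high against low dose on day 6, 0 for air between the days, 12 for the change of the high-dose effect and 7 for that of the low-dose effect. Slide as a block gave 2 and the mean of probes 0 for high against low dose. Processed signals gave 0 for air between the days. Without air rat 4 and low-dose rat 49 together, an alternative chosen after seeing the data, air between the days gave 1. The cause of these changes was not tested, except that the mean of probes changes the value of Stard4 by its construction. Median centring also cut the low-dose count on day 6 from 27 to 19, and the calls it ended were those on Mvk, Pmvk, Ebp, Srebf2, Stard4, Acly, Acss2 and Me1. Median centring shifted the median of all genes past 0.1 (log2) on day 28 at the low dose (0.110), between doses (-0.15), in air between days (-0.110) and for the change of the low-dose effect (0.147).

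Over all genes, counts that moved by more than 1.5 times were, with median centring, 572 of 1236 (low dose, day 6), 1008 of 2186 (high against low), 8 of 34 (high dose, day 28), 131 of 544 (air between days), 1627 of 3083 and 159 of 362 (changes of the high- and low-dose effect). Cy5 alone gave 105 for 34 and 5 for 2 on day 28, processed signals 5 for 2, and fits of only the compared groups gave 12 for 34, 9 for 26 and 1186 for 544. The share of higher calls on day 28 and in air moved with median centring as well, to 25.0%, 22.2% and 24.4% from 41.2%, 50% and 63.2%, and for the changes of the high- and low-dose effect to 45.5% (processed signals) and 47.3% (Cy5 alone) from 32.8% and to 31.4% (median centring) from 15.7%. Leaving out 1 rat gave 11 to 324 genes for the high dose on day 28, and 183 to 2502 for air between the days. In promoters, 1 mismatch in TCACNCCAC moved its count from 0 to 16 members, while the 200 bases before the start alone gave 21 members with CCAAT, 21 with GGGCGG and 0 with either other motif. No paired analysis was possible because the groups share no rat numbers. Dim probes limit the reading of Lpin1, which was not above background on any array.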

Other observations

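Other genes of the related lists are given as single values, chosen after their values were seen and standing for no group. Pparg, the receptor that governs fat storage and the alveolar macrophage programme, had log2 differences of -1.97 ± 0.20 at the high and -1.24 ± 0.20 at the low dose on day 6, and Lpl, the lipase that frees fatty acids from lipoproteins, -1.31 ± 0.18 and -0.43 ± 0.18 (SE, n = 5 rats a group). Dgat2, which makes triglyceride, stood at -0.51 and 0.12, while the droplet coat gene Plin2 stood at 0.43 and -0.23 and the fatty acid receptor Cd36 at 0.50 and 0.13. Lpl, Dgat2, Plin2 and Cd36 passed the test at the high dose only, and Pparg at both.

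Soat1, which esterifies cholesterol for storage, differed by 0.76 at the high dose (limma adjusted p = 8.49e-06) and 0.36 at the low dose (adjusted p = 0.0632; n = 5 rats a group), and the direct difference between doses, 0.40, passed (adjusted p = 0.0226). Npc1, the partner of Npc2 in lysosomal export, differed by 0.63 (past the threshold) and 0.32 (not past it), and Scarb1, a lipoprotein receptor, by 0.61 and 0.41, both past it. Slc25a1, which brings citrate out of mitochondria for Acly, rose by 1.096 and 0.91, and Mlxipl, a glucose-sensing factor that drives lipid synthesis, by 0.80 and 0.46, again past the threshold at both doses.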
